A study of Homo sapiens with 12 samples.

Results

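A set of 5 genes, IL21R, S1PR1, NNAT, ADAMTSL1 and PLEKHG4B, were followed through Ras-induced senescence of human fibroblasts with or without the interleukin-1 receptor depleted. They were taken by symbol from a table of 27106 genes, all 5 were found there, and they were chosen by measured values, namely a change between day 0 and day 10 that was higher in receptor-depleted than in control cells. All libraries were made from a line of human lung fibroblasts, IMR90, that carries hTERT, the catalytic subunit of telomerase, and RasERT2, a Ras oncogene under the control of tamoxifen. Depleted cells expressed a short hairpin to the receptor (shIL1R) and control cells a scramble hairpin (shScr), both under 0.5 ug/ml doxycycline, and cells then received 200 nM tamoxifen or ethanol as its control. Each genotype was sampled while growing (day 0), at the start of the senescence-associated secretory phenotype (day 4) and when senescent (day 10), with 2 libraries in each of the 6 groups. The design speaks of 2 hairpins against the receptor, and which library carries which, and whether replicates were separate cultures, is not given in the sources used here. The p-values therefore measure only the spread between these libraries, part of which may be technical.

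The 5 genes belong to different systems. IL21R encodes the receptor chain that binds interleukin-21, a cytokine of T cells, and signals together with the common gamma chain through JAK kinases and STAT factors. S1PR1 encodes a G protein-coupled receptor for the lipid sphingosine-1-phosphate, best known for guiding lymphocytes out of lymphoid organs and for holding endothelial junctions together. NNAT (neuronatin) is a paternally expressed imprinted gene for a small membrane protein of the endoplasmic reticulum, best known from the developing brain and from endocrine cells, and it lies within an intron of BLCAP. ADAMTSL1 encodes punctin, a secreted matrix protein that resembles ADAMTS proteases but lacks their protease domain. PLEKHG4B encodes a guanine nucleotide exchange factor. Interleukin-1 itself acts through IL1R1, MYD88 and IRAK kinases on NF-kB and drives much of the cytokine output of senescent cells.

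Values are deposited normalized counts, that is, reads per gene divided by a size factor of the library, and 1 read equals 0.835 to 1.20 of them. Recovered depth ran from 24140324 to 30127727 gene-assigned reads per library. The depleted gene itself, IL1R1, stood at 731 and 378 normalized counts in shIL1R libraries and at 1509 and 1552 in shScr libraries at day 0. It stood at 272 and 86.4 in shIL1R and at 1546 and 1423 in shScr at day 4, and at 295 and 280 in shIL1R and 1580 and 1240 in shScr at day 10. Each shIL1R library was below each shScr library of its day, and the log2 difference passed the limma test at day 4 (−3.27 ± 0.42, adjusted p = 0.0205) and day 10 (−2.28 ± 0.42, adjusted p = 0.0102) but not at day 0 (−1.54 ± 0.42, adjusted p = 0.281). The IL1R1 call was lost in 4 of 12 fits without 1 library at day 4 (limma adjusted p of 0.144 without replicate 2 of shScr day 4) and in 1 at day 10 (0.0696 without replicate 2 of shScr day 10). HRAS, a Ras gene whose counts cannot separate a transgene from the endogenous copy, stood at 37518 and 25280 in shIL1R and at 51791 and 50789 in shScr libraries at day 10 (−0.74 ± 0.17, limma adjusted p = 0.0257). This HRAS call was lost in 3 of 12 fits without 1 library. At day 4 HRAS was also lower without overlap, at 15523 to 19278 in shIL1R and 23750 to 29774 in shScr libraries, but was not called (−0.62 ± 0.17, limma adjusted p = 0.117). The day 0 libraries did not overlap either, at 41321 to 41405 in shIL1R and 43044 to 43387 in shScr (−0.06 ± 0.17, limma adjusted p = 0.964, not called). All 9 fibroblast markers passed the filter on low values, and their summed level was 486712 to 494571 normalized counts in shIL1R and 396605 to 445235 in shScr libraries at day 0, where the groups did not overlap, and 326089 to 483368 in shIL1R and 315959 to 328140 in shScr libraries at day 10, where they did. The 6 epithelial markers, 3 of which passed the filter, summed to 2628 to 3340 in shIL1R and 3001 to 3237 in shScr libraries at day 0, and to 2876 to 3095 in shIL1R and 2208 to 2247 in shScr libraries at day 10, higher in shIL1R without overlap as the 5 genes were. KRT18 held most of it (1717 to 3014 over all libraries), KRT5 had 0 reads and CDH1 at most 2.03 normalized counts. The part of these markers in the values of the 5 genes was not tested.

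Levels of S1PR1, ADAMTSL1 and PLEKHG4B went together over the 12 libraries, so the sequence before their starts is shown. RefSeq's promoter table (GRCh38.p14) matched 4 of the 5 genes, with no entry for NNAT, and the 250 bases before the listed start were read on the plus strand, from chr1:101236769-101237018 for S1PR1, chr9:18473903-18474152 for ADAMTSL1 and chr5:91918-92167 for PLEKHG4B. Capitals mark the letters CACCC or their reverse complement GGGTG, a core recognised by KLF factors.
S1PR1: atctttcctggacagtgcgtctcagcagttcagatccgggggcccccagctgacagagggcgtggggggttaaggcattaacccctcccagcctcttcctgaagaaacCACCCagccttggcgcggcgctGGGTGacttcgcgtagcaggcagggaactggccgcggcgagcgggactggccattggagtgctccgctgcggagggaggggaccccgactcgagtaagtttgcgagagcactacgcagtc
ADAMTSL1: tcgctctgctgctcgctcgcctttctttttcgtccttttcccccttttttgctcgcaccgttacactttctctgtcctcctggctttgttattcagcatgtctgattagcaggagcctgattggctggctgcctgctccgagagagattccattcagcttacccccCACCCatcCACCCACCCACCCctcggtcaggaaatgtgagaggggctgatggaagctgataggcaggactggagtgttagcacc
PLEKHG4B: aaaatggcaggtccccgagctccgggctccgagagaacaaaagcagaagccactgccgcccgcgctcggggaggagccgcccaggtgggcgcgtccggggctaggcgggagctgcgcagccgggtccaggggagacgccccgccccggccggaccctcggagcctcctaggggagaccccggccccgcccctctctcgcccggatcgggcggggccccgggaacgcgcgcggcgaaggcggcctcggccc
The S1PR1 window holds 2 such matches, the ADAMTSL1 window 4 and the PLEKHG4B window 0. The same letters occur in 54.71% of the 35116 windows in the table, so their presence is common. Of the other motifs searched on both strands, AP-1 (TGANTCA, in 6.57% of windows), NF-kB (GGG and TTNCC with 2 free bases between them, 5.07%), C/EBP (TTGCNNAA, 9.05%) and STAT (TTCNNNGAA, 6.57%) had 0 matches in these 3 windows and in that of IL21R, which held 2 matches to CACCC. The windows also differed in base composition, with 64.4% G and C for S1PR1, 54.8% for ADAMTSL1 and 77.6% for PLEKHG4B, beside a median of 58.0% over all windows. A match is a description of letters only, and a window without one says nothing on the factor.

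IL21R had the largest difference between the genotypes in the day 10 response. At day 0 it stood at 20.7 and 29.3 normalized counts in shIL1R libraries and at 53.3 and 44.2 in shScr libraries. At day 4 it stood at 73.3 and 74.2 in shIL1R and at 77.0 and 67.2 in shScr libraries. At day 10 it stood at 46.8 and 68.8 in shIL1R libraries, 39 and 61 reads, and at 7.08 and 15.2 in shScr libraries, 6 and 15 reads. The shIL1R libraries of the receptor chain were thus below the shScr libraries at day 0, overlapped with them at day 4 and lay above them at day 10. At day 10 the mean was 232% of the day 0 mean in shIL1R cells and 22.8% of it in shScr cells, so the groups moved in opposite directions. Both genotypes were above their day 0 level at day 4, at 295% in shIL1R and 148% in shScr cells. In bulk RNA, fewer cells of a type and less RNA per cell cannot be told apart, here and for the genes below.

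S1PR1 was lower at day 10 than at day 0 in both genotypes, and less so with the receptor depleted. The lipid receptor stood at 377 and 448 normalized counts in shIL1R and at 497 and 618 in shScr libraries at day 0. It stood at 278 and 423 in shIL1R and at 232 and 246 in shScr libraries at day 4. At day 10 it stood at 127 and 199 in shIL1R and at 49.6 and 45.6 in shScr libraries. The shIL1R libraries were below the shScr libraries at day 0 and above them at days 4 and 10, without overlap on any day. Day 10 held 39.5% of the day 0 mean in shIL1R and 8.53% in shScr cells. S1PR1 is also a gene of endothelial cells and lymphocytes, some of whose markers were at or near 0 and others not. CDH5, CD3D, CD3E and MS4A1 had 0 reads in all 12 libraries, PECAM1 lay between 0.861 and 13.2 normalized counts and PTPRC between 0 and 3.04. The receptor genes TEK, at 992 to 3249, TIE1, at 14.6 to 539, and KDR, at 1.67 to 216, and VWF, at 2.50 to 63.7, were higher, and TEK made up most of the summed level of endothelial markers. That sum over 8 markers, 5 of which passed the filter, was 2038 to 2179 in shIL1R and 1580 to 1901 in shScr libraries at day 10, and 2529 to 3283 in shIL1R and 1687 to 1825 in shScr libraries at day 0. Their part in the S1PR1 values was not tested. The 10 leukocyte markers, 2 of which passed the filter, summed to 5796 to 8520 in shIL1R and 7432 to 9076 in shScr libraries at day 10, and nearly all of it was CD68, at 2839 to 8920 over all libraries.

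ADAMTSL1 had the widest gap at day 0. The matrix protein gene stood at 316 and 212 normalized counts in shIL1R and at 530 and 661 in shScr libraries at day 0. It stood at 316 and 450 in shIL1R and at 235 and 281 in shScr libraries at day 4. At day 10 it stood at 180 and 226 in shIL1R and at 77.9 and 85.1 in shScr libraries. As for S1PR1, the shIL1R libraries were below at day 0 and above on both later days without overlap. In shIL1R cells its mean was 145% of day 0 at day 4 and 76.8% at day 10, and in shScr cells it was 43.3% and 13.7%. The day 0 gap made up 47.9% of its difference in response, against 20.0 to 32.4% for the other genes, the lowest share being that of S1PR1.

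PLEKHG4B was the gene closest to the limit of detection in senescent control cells. The exchange factor stood at 72.7 and 54.2 normalized counts in shIL1R and at 104 and 129 in shScr libraries at day 0. It stood at 59.6 and 42.1 in shIL1R and at 62.8 and 66.3 in shScr libraries at day 4. At day 10 it stood at 18.0 and 37.2 in shIL1R libraries, 15 and 33 reads, and at 4.72 and 9.11 in shScr libraries, 4 and 9 reads. The shIL1R libraries were below on days 0 and 4 and above on day 10, without overlap. Day 10 held 43.5% of the day 0 mean in shIL1R and 5.93% in shScr cells.

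NNAT differed most between the 2 senescent shIL1R libraries. It stood at 86.2 and 58.5 normalized counts in shIL1R and at 112 and 103 in shScr libraries at day 0, and at 127 and 114 in shIL1R and 141 and 133 in shScr libraries at day 4. At day 10 it stood at 64.7 and 163 in shIL1R and at 37.8 and 29.4 in shScr libraries. The shIL1R libraries were below on days 0 and 4 and above on day 10 without overlap, while replicate 1 of shIL1R at day 10 lay within the range of its day 0 libraries. BLCAP, whose intron holds NNAT, stood at 1309 and 1684 in shIL1R and at 1479 and 1674 in shScr libraries at day 10. Libraries were made strand-specific per the labels, but the strand setting of the counting is not given in the sources used here, so reads of NNAT and BLCAP, and of IL21R and the antisense transcript IL21R-AS1, which had at most 4.51 normalized counts, cannot be told apart with certainty. Markers of neural and neuroendocrine cells, another site of NNAT, summed to 13376 to 14399 in shIL1R and 18871 to 19824 in shScr libraries at day 10. Of the 8 markers 3 passed the filter, ENO2 alone held 4011 to 19800, and CHGA had 0 reads in all libraries.

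**Figure D1:**
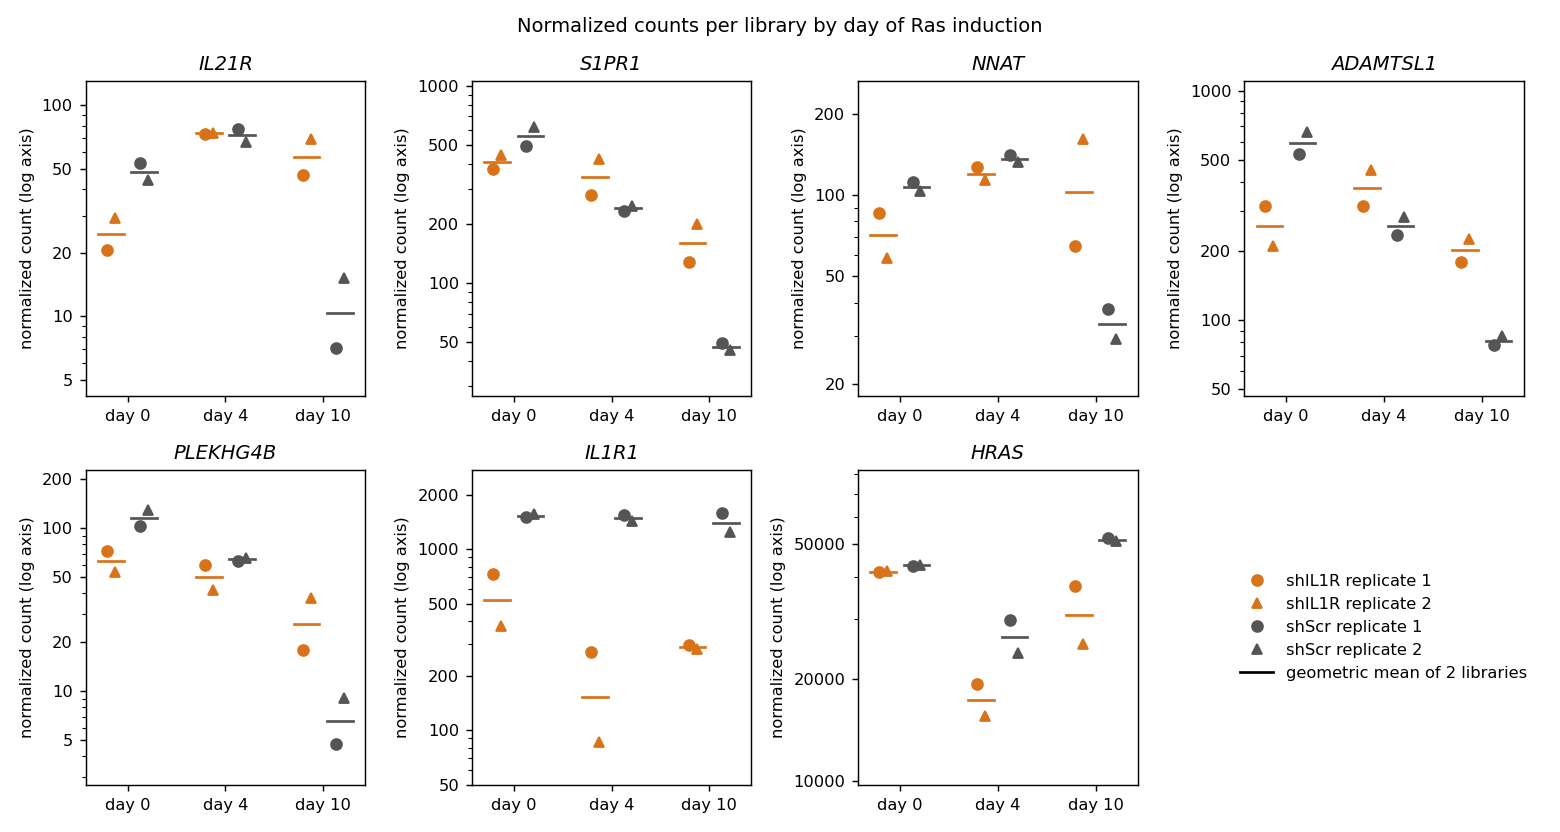
Normalized counts (log axes) of the 5 genes, IL1R1 and HRAS in each library by day of Ras induction, shIL1R in orange and shScr in grey, circles for replicate 1, triangles for replicate 2 and a short line for the geometric mean of each pair. In all 5 panels of these genes shIL1R is the lower genotype at day 0 and the higher one at day 10, for IL21R at 46.8 and 68.8 in shIL1R against 7.08 and 15.2 in shScr libraries.

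Read as fold changes, the genes changed order between the days. Log2 fold changes of shIL1R over shScr are of the normalized count plus 1, from limma over all 12 libraries and the 13924 genes that reached 10 normalized counts in 2 or more libraries, and stand with their SE. All 5 genes passed this filter at day 0 and day 4 in every library. At day 0 the values were −0.95 ± 0.34 for IL21R, −0.43 ± 0.24 for S1PR1, −0.59 ± 0.35 for NNAT, −1.19 ± 0.23 for ADAMTSL1 and −0.87 ± 0.38 for PLEKHG4B. At day 10 they were 2.34 ± 0.34 for IL21R, 1.72 ± 0.24 for S1PR1, 1.60 ± 0.35 for NNAT, 1.30 ± 0.23 for ADAMTSL1 and 1.82 ± 0.38 for PLEKHG4B. The label of genes raised by receptor loss describes only shIL1R against shScr at day 10, a side that the choice of the genes favoured. At day 0 every shIL1R library was below every shScr library. Within shIL1R cells S1PR1, ADAMTSL1 and PLEKHG4B stood at 39.5%, 76.8% and 43.5% of their day 0 means at day 10. IL21R and NNAT stood at 232% and 157% of theirs. At day 4 both shIL1R libraries were above both shScr libraries for S1PR1 and ADAMTSL1 only, and neither gene was called. Days 0 and 10 entered the choice of the genes, so the values of those days are a description with no test. Over all genes tested, 27.9% were below without overlap at day 0, 24.0% above at day 10 and 6.94% both, and nothing is read from the count of 5. The differences in response, day 10 minus day 0 in shIL1R minus the same in shScr, were 3.29 ± 0.48 for IL21R, 2.70 ± 0.53 for PLEKHG4B, 2.49 ± 0.32 for ADAMTSL1, 2.19 ± 0.50 for NNAT and 2.15 ± 0.34 for S1PR1. They ranked 1, 4, 8, 23 and 24 from the top among the genes tested, of which 0.876% were called higher.

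**Figure D2:**
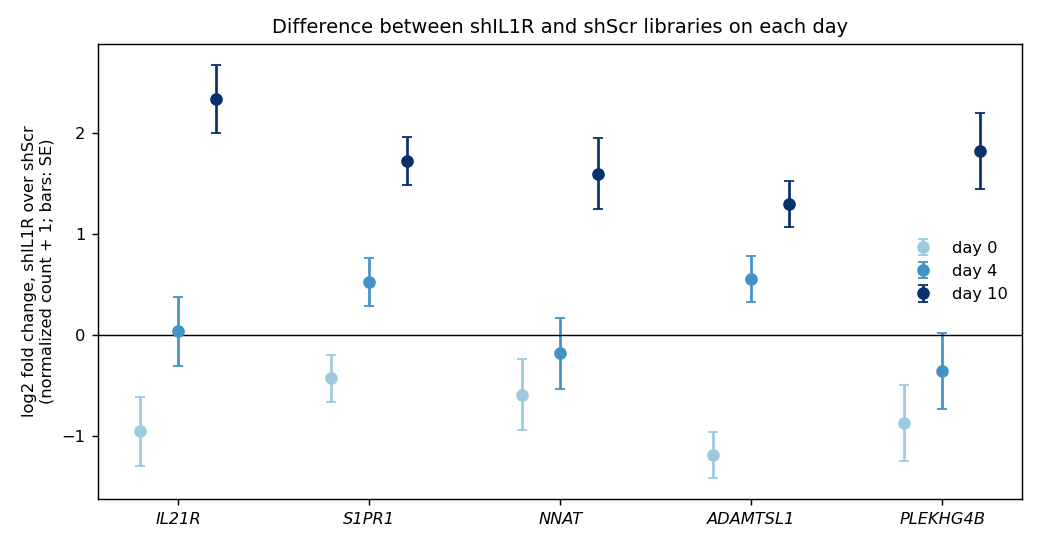
Log2 fold change of shIL1R over shScr (normalized count plus 1) for each of the 5 genes at day 0, day 4 and day 10, with bars of 1 SE from the limma fit. Each gene lies below 0 at day 0 and above 0 at day 10, while at day 4 the values run from −0.36 for PLEKHG4B to 0.55 for ADAMTSL1.

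The day 4 libraries took no part in the choice of the genes, so the genotypes were tested there. ADAMTSL1 was 0.55 ± 0.23 (95% interval 0.05 to 1.05, limma adjusted p = 0.239) and S1PR1 0.52 ± 0.24 (−0.001 to 1.04, limma adjusted p = 0.274), with both shIL1R libraries above both shScr libraries. PLEKHG4B was −0.36 ± 0.38 (−1.19 to 0.47, limma adjusted p = 0.655) and NNAT −0.18 ± 0.35 (−0.96 to 0.60, limma adjusted p = 0.824), with both shIL1R libraries below. IL21R was 0.03 ± 0.34 (−0.72 to 0.78, limma adjusted p = 0.974), with overlapping libraries. By limma 0 of the 5 genes were called and 1, ADAMTSL1, had an unadjusted p below 0.05, beside 0.280% called and 18.2% with such a p among all genes tested. The median of the 5 was 0.03, against −0.001 for all genes. Above without overlap stood 2 of the 5 genes and below 2, where 25.8% and 27.3% of all genes did so. On the reads, edgeR called 0 of 5 and DESeq2 0 of the 4 genes to which it gave an adjusted p, IL21R having none. The number of all genes called at day 4, 39, went to 1 without replicate 1 or 2 of shScr day 4, and to 738 and 739 without replicates 1 and 2 of shIL1R day 10.

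**Figure D3:**
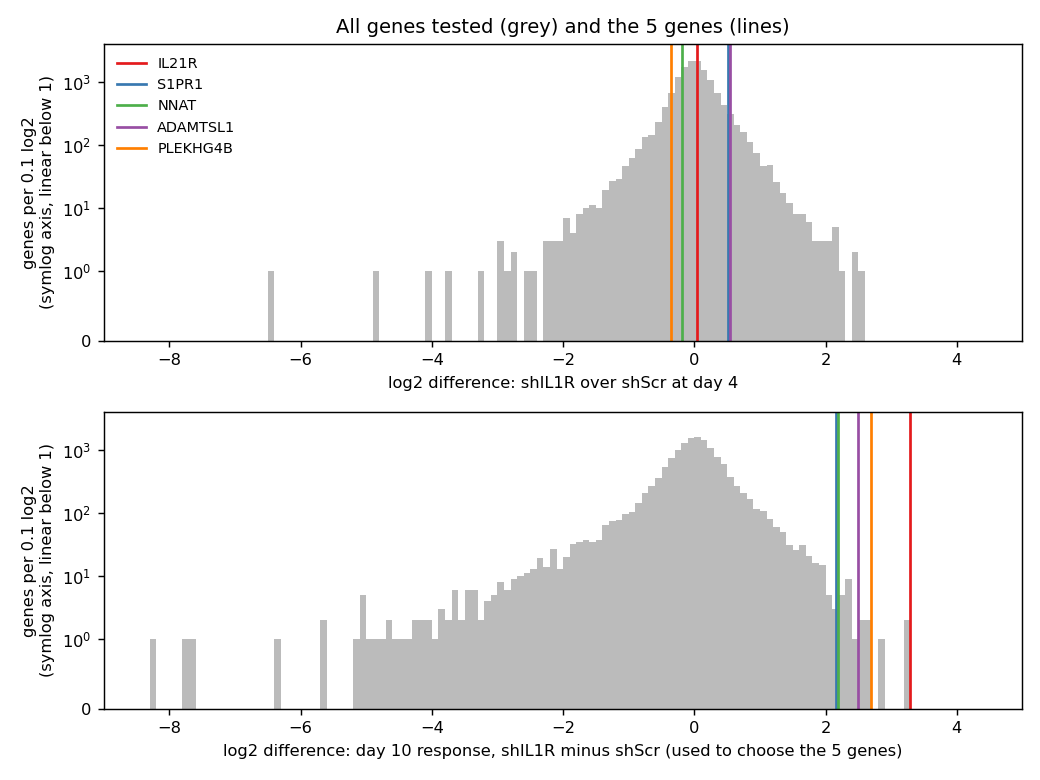
Number of genes per 0.1 log2 (symlog axis, linear below 1) against the log2 difference of shIL1R and shScr at day 4 (top) and of their day 10 response (bottom), with coloured lines at the 5 genes. At day 4 the lines run from −0.36 to 0.55, with ADAMTSL1 at rank 877, S1PR1 at 976 and PLEKHG4B at 12433 from the top of 13924 genes. In the response that chose them the lines stand in the upper tail, from 2.15 to 3.29.

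Within the senescent shIL1R group, all 5 genes were higher in replicate 2 than in replicate 1. The ratio of replicate 2 to replicate 1 was 2.51 for NNAT, 2.07 for PLEKHG4B, 1.56 for S1PR1, 1.47 for IL21R and 1.26 for ADAMTSL1. Of all genes tested 49.4% were higher in replicate 2, and of the 4356 genes called lower at day 10 in shScr cells, 31.3% of those tested, 67.0% were. HRAS went the other way, at 37518 in replicate 1 and 25280 in replicate 2, while IL1R1 was 295 and 280. Without replicate 2 the day 10 log2 fold changes were 0.94 for NNAT, 1.32 for PLEKHG4B, 1.40 for S1PR1, 2.06 for IL21R and 1.13 for ADAMTSL1. The part of HRAS or of this library in the values was not tested. Among the same 4356 genes, the response was higher in shIL1R by the estimate in 69.7%, with a median difference of 0.16, against 50.6% and 0.01 over all genes. These figures share the shScr libraries with the choice of those genes.

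Over the 12 libraries S1PR1, ADAMTSL1 and PLEKHG4B had Pearson correlations of log2 levels between 0.914 and 0.937 with each other, and IL21R and NNAT had 0.874, while pairs across these groups ran from 0.607 to 0.758. Libraries share their day and genotype, and those of days 0 and 10 chose the genes for a like pattern, so these are descriptions. The first 3 genes were at or below their day 0 mean at day 4 in shScr cells, at 42.9% for S1PR1, 43.3% for ADAMTSL1 and 55.3% for PLEKHG4B, and the other 2 above it, at 148% for IL21R and 127% for NNAT. The genes most like each member over the 12 libraries were GALNT10, RASA4B and COL12A1 for IL21R (r from 0.939 to 0.962), CPNE2, NUDT1 and LMO7 for S1PR1 (0.982 to 0.984), MEX3A, IDH1 and AP3M2 for NNAT (0.931 to 0.967), BLVRA, SAMD13 and ISCA2 for ADAMTSL1 (0.941 to 0.949), and TMSB15B, ZC4H2 and TERT for PLEKHG4B (0.974 to 0.976). Counts of RASA4B and TMSB15B are uncertain, since both have near-identical relatives. TERT stood at 18576 and 23488 normalized counts in shIL1R and at 13496 and 12854 in shScr libraries at day 10, and its counts cannot separate the hTERT transgene from the endogenous gene.

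Neighbouring genes (order from RefSeq, GRCh38.p14) were read as a local comparison. At day 10 the neighbour DPH5 of S1PR1 was higher in shIL1R, at 460 and 409 against 328 and 285 normalized counts in shScr libraries (log2 fold change 0.50 ± 0.12, limma adjusted p = 0.0305). In 3 of 12 fits without 1 library DPH5 missed the threshold, with the highest limma adjusted p, 0.236, without replicate 2 of shScr day 10. DPH5 was not called at day 4 (−0.095 ± 0.123, limma adjusted p = 0.727) or in the day 10 response (0.615 ± 0.174, limma adjusted p = 0.0908). Of all genes tested 4.37% were called higher at day 10. IL4R and GTF3C1 beside IL21R (−0.22 ± 0.13, limma adjusted p = 0.312, and 0.15 ± 0.13, limma adjusted p = 0.502), BLCAP (−0.08 ± 0.12, limma adjusted p = 0.707) and SRC beside NNAT (−0.25 ± 0.09, limma adjusted p = 0.102) were not called at day 10. SH3GL2 and SAXO1 beside ADAMTSL1 had at most 4.72 and 1.20 normalized counts, and LRRC14B beside PLEKHG4B, LINC01307 beside S1PR1 and LINC00489 beside NNAT had 0 reads in all libraries.

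The partners of the receptors were followed next, beside 4.37% of all genes called higher and 4.85% lower in shIL1R at day 10. The ligand gene IL21 had 0 reads in all libraries, and IL2RG, the common gamma chain, had at most 2.40 normalized counts in any library. Among 15 tested genes of gamma chain cytokines, receptors and JAK-STAT signalling, 2 were higher and 1 lower in shIL1R at day 10, with a median log2 fold change of 0.08 against −0.003 for all genes. The cytokine IL15 (0.98 ± 0.24, limma adjusted p = 0.0293) and its receptor chain IL15RA (0.84 ± 0.20, limma adjusted p = 0.0297) were higher and the feedback inhibitor SOCS1 lower (−1.25 ± 0.29, limma adjusted p = 0.0257). The kinase JAK1 stood at 5466 and 5123 in shIL1R and at 5229 and 5761 in shScr libraries. In the change between day 0 and day 10, this list had 0 genes called higher and 0 lower in shIL1R, and so had the sphingosine-1-phosphate list. Of 19 tested genes of the sphingosine-1-phosphate pathway, 1 was higher and 0 lower at day 10 (median −0.11). It was KLF2, a factor known to drive S1PR1 in mouse lymphocytes, at 187 and 263 in shIL1R and 106 and 148 in shScr libraries (0.82 ± 0.22, limma adjusted p = 0.0408). Of the other sphingosine-1-phosphate receptors, S1PR3 stood at 584 and 812 in shIL1R and 533 and 382 in shScr libraries (limma adjusted p = 0.0777), S1PR2 at 711 and 621 in shIL1R and 822 and 785 in shScr libraries (limma adjusted p = 0.177), and S1PR4 and S1PR5 did not pass the filter. Of these calls KLF2 was lost in 7, IL15RA in 4, SOCS1 in 3 and IL15 in 2 of 12 fits without 1 library, each of them without replicate 2 of shScr day 10 (limma adjusted p from 0.085 to 0.239). KLF2 was also lost without a filter (limma adjusted p = 0.0614) and by edgeR (adjusted p = 0.0547), and IL15 without a filter (limma adjusted p = 0.0508).

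The relatives of ADAMTSL1 and NNAT were counted in the same way, beside the same 4.37% of all genes higher and 4.85% lower in shIL1R at day 10. Of 21 tested ADAMTS, ADAMTSL and microfibril genes 0 were called by limma (median −0.07), and ADAMTSL4 stood at 1296 and 1260 in shIL1R and 1394 and 1522 in shScr libraries. Of 17 tested imprinted genes 1 was higher, IGF2 (0.63 ± 0.18, limma adjusted p = 0.0478), and 1 lower, NAP1L5 (−0.87 ± 0.19, limma adjusted p = 0.0213). Neither was called in the change between day 0 and day 10. Of 13 tested genes of the calcium store, on which neuronatin is known to act, 0 were higher and 1 lower at day 10, the calcium release channel ITPR2 (−0.82 ± 0.20, limma adjusted p = 0.0293). IGF2 was lost in 10, NAP1L5 in 3 and ITPR2 in 2 of 12 fits without 1 library, each of them without replicate 2 of shScr day 10 (limma adjusted p from 0.154 to 0.325). IGF2 was also lost without a filter (limma adjusted p = 0.0677) and by edgeR (adjusted p = 0.0506).

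Among genes of interleukin-1 signalling, the pathway of the depleted receptor, more were called lower than higher. Of 21 tested genes 9 were lower and 1 higher in shIL1R at day 10, with a median of −1.35. The 9 were CXCL1, CXCL8, IL6, IL1B, IL1A, IL1R1, IRAK3, NFKBIZ and IRAK2, and the 1 was the kinase IRAK4. MYD88, IRAK1, TRAF6, MAP3K7, TAB1 and TAB2 of the list were not called in either direction. Among all genes 4.85% were lower and 4.37% higher. The list and the 9 lower genes include IL1R1, the target of the hairpin, whose fall follows from the design. The chemokine CXCL1 stood at 125 and 28.2 in shIL1R and 1266 and 1097 in shScr libraries (−4.28 ± 0.53, limma adjusted p = 0.00222), and CXCL8 at 5272 and 884 in shIL1R and 38965 and 44346 in shScr libraries (−4.27 ± 0.66, limma adjusted p = 0.00512). Both were lower in replicate 2 than in replicate 1 of shIL1R, the reverse of the 5 genes. The count of 9 became 3 without replicate 2 of shScr day 10, where CXCL8 missed (limma adjusted p = 0.0621), and 13 without replicate 1 of shIL1R day 10. In the change between day 0 and day 10, 7 genes of this list had a lower response in shIL1R (median −0.74, against 0.01 for all genes). Across all genes 1.54% had one. Leaving out either shScr library of day 0, or replicate 2 of shScr at day 10, gave 2 genes, either shIL1R library of day 0 gave 3, and leaving out replicate 1 of shIL1R at day 10 gave 11.

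The same lists were counted between day 10 and day 0 within each genotype. Among all genes 30.0% were higher and 30.3% lower at day 10 than at day 0 in shIL1R cells, and 32.5% were higher and 31.3% lower in shScr cells. Of the 21 ADAMTS, ADAMTSL and microfibril genes 12 were higher and 4 lower in shIL1R cells, and 12 were higher and 3 lower in shScr cells. In each fit without 1 library fewer than these 12 were higher in shIL1R cells. ADAMTSL4 rose in both genotypes (1.33 ± 0.11 in shIL1R, limma adjusted p = 1.73e-06, and 1.86 ± 0.11 in shScr, limma adjusted p = 1.25e-07), while ADAMTSL1 stood at 76.8% of its day 0 mean in shIL1R and 13.7% in shScr cells. Of the 13 calcium store genes 7 were higher and 1 lower in shIL1R cells, or 2 lower without replicate 2 of shIL1R day 10, and 9 were higher and 0 lower by limma in shScr cells, where edgeR called 1 lower. Of the 17 imprinted genes 7 were higher and 6 lower in shIL1R cells, and 8 were higher and 2 lower in shScr cells, a difference that was not tested. Of the 15 gamma chain and JAK-STAT genes 4 were higher and 2 lower in shIL1R cells, and 5 were higher and 3 lower in shScr cells, and the 2 lower in shIL1R became 1 without replicate 1 or 2 of shIL1R day 0. Of the 19 sphingosine-1-phosphate genes 6 were higher and 7 lower in shIL1R cells, and 8 were higher and 6 lower in shScr cells, and the 6 became 3 without replicate 1 of shScr day 0. S1PR2 rose in both genotypes (1.19 ± 0.12 in shIL1R, limma adjusted p = 1.02e-05, and 1.52 ± 0.12 in shScr, limma adjusted p = 1.27e-06), and so did the kinase SPHK1, which makes sphingosine-1-phosphate (1.63 ± 0.22 in shIL1R, limma adjusted p = 6.89e-05, and 1.35 ± 0.22 in shScr, limma adjusted p = 2.37e-04). KLF2 fell in both (−2.83 ± 0.22 in shIL1R, limma adjusted p = 1.23e-06, and −3.56 ± 0.22 in shScr, limma adjusted p = 1.74e-07). S1PR1 stood lower at day 10 in both as well, and the part of KLF2 in the S1PR1 values was not tested. Of the 21 interleukin-1 genes 8 were higher and 4 lower in shIL1R cells, and 14 were higher and 2 lower in shScr cells. Both counts in shIL1R cells went up or down with the library left out.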

How the data were processed

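Poly(A) RNA of 12 libraries was analysed from 1 deposited table. The submitters' processing notes name hg19, TopHat, HTSeq and DESeq2 without their roles or versions, and annotation and strand setting are not given in the sources used here. The deposited values are a normalized signal that, from the values, equals reads times 1 factor per library. Dividing by the smallest value above 0 of a library gave whole reads within 0.001 for 100% of values, so edgeR 4.0.16 and DESeq2 1.42.0 were run on recovered reads as alternatives. Log2 values, after adding 1, entered limma 3.58.1 (R 4.3.3) as the main test, with 6 group means, trended empirical Bayes (residual degrees of freedom 6, prior 4.98) and Benjamini-Hochberg adjustment over 13924 genes, called below 0.05. Levels are given per library and means over n = 2. Genes named beside the 5 follow a rule: IL1R1, HRAS, the 3 most alike genes of each member, neighbours, and up to 2 called genes per list and contrast, with some partners added after their values were seen. The 5 genes and the 6 lists were chosen with earlier results of these data known. Promoter sequences come from RefSeq. Alternatives were the pseudocount, the filter, TMM, a replicate block, fits on only the groups compared, robust eBayes and leaving out each library. The fit was tested on simulated data. One further gene list is not reported here.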

Additional observations from a re-analysis of the deposited data

Results flagged for a closer look

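The 5 genes were looked at again because each was higher in both shIL1R than in both shScr libraries at day 10 and lower in both at day 0. Of all genes tested 6.94% had this pattern, and the choice of the 5 genes favoured it. The log2 fold changes of shIL1R over shScr at day 10 were 2.34 for IL21R, 1.72 for S1PR1, 1.60 for NNAT, 1.30 for ADAMTSL1 and 1.82 for PLEKHG4B, and this difference between the days was not tested, since it chose the genes. For IL21R both day 10 libraries were also above both day 0 libraries in shIL1R and below them in shScr cells, with a difference of 3.29 that was likewise not tested. The share of all genes with this pattern was not counted, so nothing is read from it.

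Among the lists, up to 2 called genes per list with the largest difference between genotypes in the day 0 to day 10 response are named. By limma they were the matrix protease ADAMTS5 (−1.80, adjusted p = 0.0289), the calcium release channel ITPR3 (1.18, adjusted p = 0.0085), CXCL8 (−5.19, adjusted p = 0.0197) and IL6 (−5.05, adjusted p = 0.00333). CXCL1, IL1B, IL1A, IRAK3 and NFKBIZ of the interleukin-1 list were also called with a lower response in shIL1R. ITPR3 stood at 1124 and 1047 normalized counts in shIL1R and 2801 and 2634 in shScr libraries at day 0, and at 3709 and 4034 in shIL1R and 4949 and 3676 in shScr libraries at day 10. Of 12 fits without 1 library, CXCL8 lost its call in 5, ADAMTS5 in 4, ITPR3 in 1 and IL6 in 0. The highest limma adjusted p was 0.150 for ADAMTS5 and 0.0562 for ITPR3, both without replicate 2 of shIL1R day 0, and 0.101 for CXCL8 without replicate 2 of shScr day 10. ADAMTS5 also missed without a filter (limma adjusted p = 0.0505) and CXCL8 with robust eBayes in limma (adjusted p = 0.0509).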

How the results depend on the processing

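For the 5 genes at day 4, none passed in any of 22 alternatives (DESeq2 gave IL21R no adjusted p), and the ranges of the limma, edgeR and DESeq2 adjusted p over these were 0.145 to 0.796 for ADAMTSL1, 0.123 to 0.851 for S1PR1, 0.472 to 0.966 for PLEKHG4B, 0.58 to 0.968 for NNAT and 0.925 to 1 for IL21R. One direction reversed, that of IL21R without replicate 2 of shScr day 4 (log2 −0.063, in a range over single libraries of −0.063 to 0.132). The number of genes called between genotypes at day 4 was 39, and it was 9 without a filter, 19 with a filter of 50 normalized counts, 1 when fitted on the 2 groups alone, 476 by DESeq2 and 1 to 739 without 1 library. At day 10 it was 1283, with 73 from the 2 groups alone and 115 to 3521 without 1 library. For the response it was 336, with 216 without a filter, 156 from the 4 groups alone, 802 by DESeq2 and 42 to 2123 without 1 library. The replicate block gave 34, 1267 and 312 genes and changed no call of the 5 genes or of the other genes named between genotypes. Same-numbered libraries of the 2 genotypes did not deviate together (correlations 0.008 at day 0, −0.021 at day 4 and −0.098 at day 10), so the numbers were not taken as pairs. Between days, same-numbered shIL1R libraries had 0.231 (days 0 and 4), 0.203 (days 4 and 10) and 0.053 (days 0 and 10), and shScr libraries −0.045, −0.102 and 0.125. The descriptive values of the 5 genes at days 0 and 10 and of their response kept their sign in each alternative. Of 330 such values 28 moved by more than 1 SD between replicates, the lowest at day 10 being 0.94 for NNAT without replicate 2 of shIL1R day 10. Fitted on those groups alone, IL1R1 at day 4 (limma adjusted p = 0.156) and HRAS, DPH5 and the list genes named above between genotypes at day 10, other than CXCL1 and IL1R1, missed the threshold. Day 10 reads of PLEKHG4B and IL21R in shScr, 4 to 15 per library, limit the precision of their fold changes, which a pseudocount of 5 lowered to 1.41 and 1.99. The fit has a mean per group, so a day 4 log2 difference comes from the day 4 libraries alone. Leaving out a library of day 0 or day 10 can therefore change only the shared spread used in its test. IL1R1 at day 4 stayed at −3.265 without either shScr library of day 0. The spread of the shIL1R libraries of day 10 thus also enters the day 4 tests of the 5 genes. Beyond this, the cause of the shifts was not tested.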
